A study of Homo sapiens with 9 samples.

Results

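W33 is 1 of 4 clones of the K562 line that carry wild-type SRSF2, and its RNA profile is described here against those of the other 3, W19, W36 and W42. The clone was singled out because it stood apart from them in these same gene counts, so every difference between W33 and the other wild-type clones is given as a description. It is 1 library of 9 in the series. The other libraries are the parental K562 line, also with wild-type SRSF2, and 4 clones with the P95H substitution in SRSF2 (P9, P15, P22 and P38). The K562 line is an established erythroleukaemia line derived from chronic myeloid leukaemia. Each clone is a single library, so W33 has no replicate, and the labels give neither the number of its passages nor the event it was derived from.

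SRSF2 is a serine- and arginine-rich protein that binds exonic RNA and helps the spliceosome to define exons, and P95H recurs in myeloid neoplasms. K562 cells make embryonic and fetal globins, carry the BCR-ABL1 fusion and lack the CDKN2A and CDKN2B genes. Cells grown from a single K562 cell can differ from the parental culture in chromosome content and in which genes are silent. Libraries can in addition differ along gene length and GC content, which shifts many genes a little and in a graded way, whereas a gene that is silent in one clone and active in another stands apart from that gradient.

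Poly(A)-selected RNA was sequenced, and reads were counted per gene. Total counts ran from 24546255 in W33, the shallowest library, to 35477328 in the parental library, and a floor of 3 counts was set, which is 0.0864 to 0.128 CPM (the count scaled to library size, with TMM factors). This floor covers counting error only. The share of reads placed in no gene was 47.6% in W33, the lowest of the range of 47.6 to 49.1%, and its TMM factor, 0.958, was also the lowest of the 9. The K562 markers set as present (globins, GATA1, TAL1, KLF1, TFRC and others, 12 genes) were all detected in W33, with a summed level of 5442 CPM against 3701 to 4652 CPM in the other wild-type clones, and CDKN2A and CDKN2B were at 0. In bulk RNA, fewer cells that express a gene and less RNA per cell cannot be told apart.

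SRSF2 (ENSG00000161547, chromosome 17), the gene that the P95H clones carry in mutant form, stood at 429 CPM in W33. It stood at 501, 511 and 502 CPM in W19, W36 and W42, at 514 CPM in the parental library and at 443 to 583 CPM in the P95H clones. W33 lay below all 8 other libraries, by 1.18-fold from the mean of the other wild-type clones. The gene shares 36.7% of its exonic sequence with the antisense gene MFSD11, whose reads cannot be separated from its own. MFSD11 was at 139 CPM in W33 and at 189 to 233 CPM elsewhere.

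The most widespread feature of W33 was a gradient over gene length and GC content. Short and GC-rich genes were higher in W33 than in W19, W36 and W42, and long and AT-rich genes were lower. Over 9794 protein-coding genes that averaged 5 CPM or more in the wild-type clones, the median log2 CPM difference was 0.36 in the quintile with the shortest exonic sequence (median length 2251 bases). It was 0.06, -0.07, -0.21 and -0.36 in the following quintiles, the last with a median length of 10580 bases. Over quintiles of exonic GC content the medians were -0.50, -0.28, -0.06, 0.20 and 0.39, from a median GC content of 38.7% to 61.3%. The shortest quintile thus exceeded the longest by 0.72, and the quintile highest in GC content exceeded the lowest by 0.89. Length and GC content together accounted for 39.8% of the variance of these differences across genes (16.998% for length alone and 32.8% for GC content alone). This is a share across genes, which are not replicates.

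**Figure D1:**
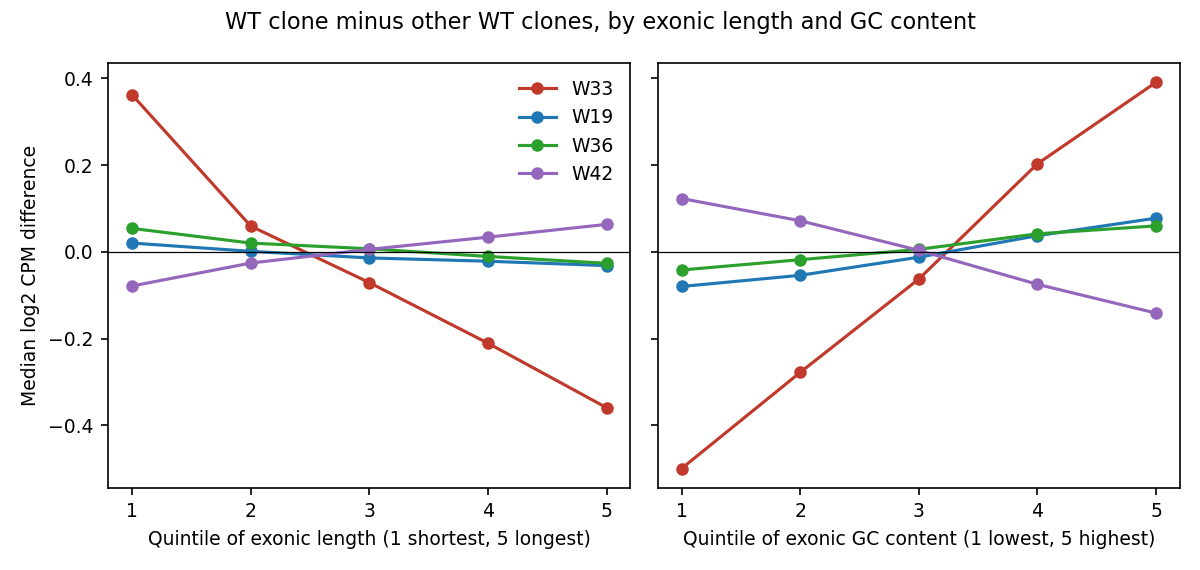
Median log2 CPM difference of each wild-type clone from the other wild-type clones (vertical axis) over quintiles of exonic length (left) and of exonic GC content (right), in 9794 protein-coding genes. W19, W36 and W42 are each set against the other 2, without W33. The W33 line runs from 0.36 to -0.36 over length and from -0.50 to 0.39 over GC content, while the other 3 lines stay close to 0.

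The other wild-type clones, each set against the remaining 2 with W33 left out, showed much flatter gradients. The difference between the shortest and longest quintiles was 0.05 in W19, 0.08 in W36 and -0.14 in W42, and that between the highest and lowest GC quintiles was 0.16, 0.10 and -0.26. Length and GC content accounted for 6.11%, 3.45% and 14.1% of the variance. With other references the gradient of W33 had the same direction. Against the mean of the P95H clones its steps were 0.72 over length and 0.81 over GC content, and against the parental library they were smaller, at 0.43 and 0.68. The parental library therefore lay between W33 and the other clones in the length gradient.

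The differences by length and by GC content added up in W33. In the 629 genes that were both in the shortest quintile and in the highest GC quintile, the median log2 CPM difference was 0.63 and 93.2% of the genes were above 0. In the 617 genes both longest and lowest in GC, it was -0.59 and 5.67% were above 0. Differences by level were smaller: after the gradient had been removed, the medians of quintiles by mean CPM ran from -0.06 to 0.08.

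**Figure D2:**
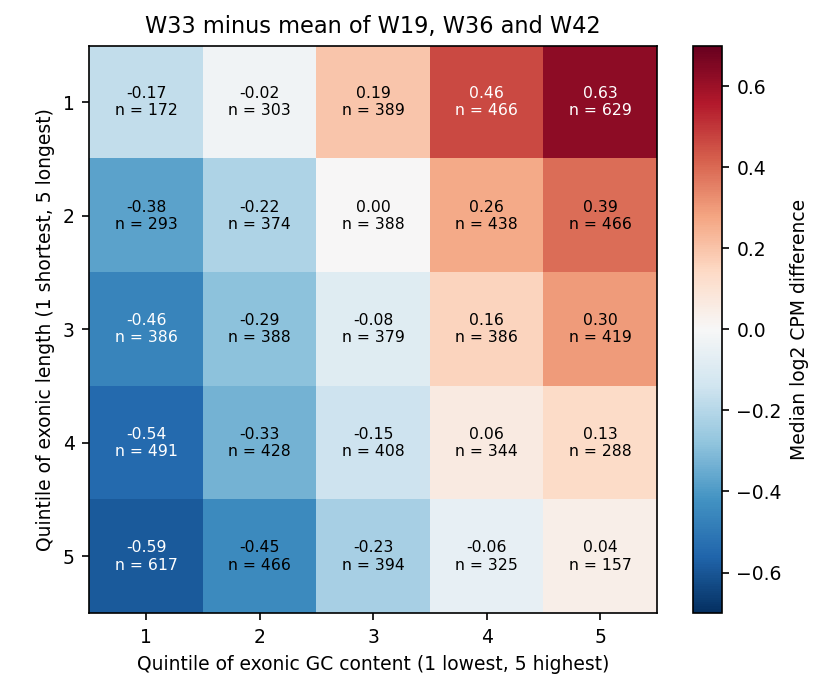
Median log2 CPM difference of W33 from the mean of W19, W36 and W42 in a grid of quintiles of exonic length (rows) and exonic GC content (columns), with the number of protein-coding genes in each field. Colour runs from blue, lower in W33, to red, higher in W33, and the extremes are 0.63 at the top right and -0.59 at the bottom left.

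The genes at the ends of this gradient are illustrated by 2 sequences, the middle 90 coding bases of the main transcript in GENCODE 29 with G and C in capitals. PPDPF and SREK1 were picked by a script, after the values were known, as the genes with the largest gradient part in each direction among protein-coding genes that were called with the gradient in place and not after its removal, with a mean of at least 20 CPM in the other wild-type clones. PPDPF, on chromosome 20, has 1094 exonic bases at 68.6% GC, and SREK1, on chromosome 5, which encodes a splicing regulator with an arginine- and serine-rich domain, has 18240 exonic bases at 35.1% GC.
PPDPF, coding bases 127 to 216: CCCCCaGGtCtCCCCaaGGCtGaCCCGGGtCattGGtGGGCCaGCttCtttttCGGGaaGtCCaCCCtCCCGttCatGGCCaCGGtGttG
SREK1, coding bases 892 to 981: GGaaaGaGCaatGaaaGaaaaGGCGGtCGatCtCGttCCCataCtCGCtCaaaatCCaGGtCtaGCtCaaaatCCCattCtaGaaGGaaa

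Of the bases shown, 57 in PPDPF (63.3%) and 40 in SREK1 (44.4%) are G or C, against 68.6% and 35.1% over all exons. The stretches thus differ less in GC content than the whole exonic sequences do. PPDPF stood at 133 CPM in W33 and at 74.96, 65.6 and 55.8 CPM in W19, W36 and W42, and the gradient accounted for 0.69 of its log2 CPM difference of 1.03. SREK1 stood at 82.2 CPM in W33 and at 143, 144 and 163 CPM in the others, with a log2 CPM difference of -0.87 of which the gradient accounted for -0.65. In neither gene did W33 overlap the other wild-type clones.

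To count and name genes, W33 was compared with W19, W36 and W42 in an edgeR model of the 9 libraries. W33 has no replicate, and the model takes its spread to be that of the other clones. At an adjusted p under 0.05, 2246 of 20636 genes (10.9%) were called, 1170 higher (5.67%) and 1076 lower (5.21%) in W33. The same comparison called 0 genes for W19, 0 for W36 and 4 for W42 (0.0194%), with 122, 134 and 322 genes at an unadjusted p under 0.05 against 6143 for W33. With W33 left out of the libraries, the numbers called were 0, 0 and 3 (0.0147%). The called genes had a median absolute log2 difference of 0.84, and most of them differed by less than 2-fold. Called protein-coding genes followed the gradient: those higher in W33 had a median exonic length of 3000.5 bases and a GC content of 57.6%, those lower 7441 bases and 40.7%, and all tested 4931.5 bases and 48.9%.

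After the length and GC gradient of every library had been removed, 693 genes (3.36%) were called, 336 higher (1.63%) and 357 lower (1.73%). Of the 2246 genes called before, 542 (24.1%) were still called in the same direction, and 151 genes were called only afterwards. The median length and GC content then lay closer together, at 5588.5 bases and 45.2% for the higher genes and 6005 bases and 50.2% for the lower ones. These calls rest on few libraries. With W19 left out, edgeR called 527 genes before and 0 after the gradient was removed. With W36 left out it called 0 and 0, and with W42 left out 0 and 0, with 5003 and 4570 genes before and 3513 and 3288 after at an unadjusted p under 0.05 (3863 after with W19 left out). Calls are therefore used below only to count and to name genes, and nothing is read from their share, since W33 was chosen from the same contrast. On this contrast, W33 lay above all 8 other libraries in 22.3% of the genes tested and below all 8 in 28.4%. It lay above the other 3 wild-type clones in 37.9% and below them in 41.5%.

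Genes of the translation machinery were higher in W33 as a group. Among the proteins of the cytosolic ribosome, 75 of 76 tested genes were above 0, with a median log2 CPM difference of 0.51 against -0.02 over all genes tested, and 54 lay above all 8 other libraries. With the gradient removed the median was 0.42, and it was 0.28 when length and GC content were taken from the main transcript rather than from all exons. RPL28, a protein of the large subunit, stood at 1459 CPM in W33 and at 760, 755 and 625 CPM in W19, W36 and W42 (2.05-fold). RPL9 stood at 131 CPM against 73.5, 64.4 and 68.97 CPM (1.90-fold), and RPL18 at 1363 CPM against 745, 765 and 644 CPM (1.90-fold). In all 3 W33 lay above the other 8 libraries, and all 3 were called with and without the gradient over exonic sequence. With the gradient over the main transcript, RPL18 lost its call (edgeR adjusted p = 0.0579). Of the list, 26 genes were called higher before and 9 after the removal, 7 with the main transcript, and 0 lower. Over all genes tested, 5.67% were called higher before the removal and 1.63% after it, and 22.3% lay above all 8 other libraries. Many ribosomal protein genes have processed copies elsewhere in the genome, so their counts are uncertain.

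Mitochondrial energy and translation genes encoded in the nucleus behaved alike. The 74 subunits of oxidative phosphorylation had a median log2 CPM difference of 0.57 (0.45 with the gradient removed, 0.34 with the main transcript), and 67 of them were above 0. ATP5F1E, a subunit of ATP synthase, was at 503 CPM in W33 against 291, 333 and 303 CPM. NDUFA3, a subunit of complex I, was at 77.2 CPM against 36.7, 38.1 and 30.7 CPM (2.20-fold). Mitochondrial ribosomal proteins, which translate the few mRNAs of the organelle, had a median of 0.37 over 71 genes (0.32 and 0.25), with MRPS6 at 98.1 CPM against 62.7, 56.4 and 50.2 CPM. In each of these named genes W33 stood above all 8 other libraries. Called higher after the gradient was removed were 15 oxidative phosphorylation genes and 8 mitochondrial ribosomal genes, and 0 were called lower in either list. With the main transcript these were 10 and 4, and MRPS6 lost its call. Over all genes tested, 1.63% were called higher after the gradient over exonic sequence was removed.

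The genes that the mitochondrial genome itself encodes did not share this direction. Over 13 of them the median log2 CPM difference was -0.07, with 6 above and 7 below 0. MT-ND4L, a complex I subunit, was at 164 CPM in W33 and at 355, 307 and 321 CPM in the other wild-type clones, and MT-ATP8, a subunit of ATP synthase, at 146 CPM against 316, 300 and 237 CPM. Both lay below all 8 other libraries. Their transcripts overlap those of MT-ND4 and MT-ATP6.

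The splicing machinery was divided. The 42 core spliceosome genes had a median log2 CPM difference of 0.40 (0.24 with the gradient removed, 0.22 with the main transcript), with 31 above 0, while the 20 SR proteins and splicing kinases had -0.21 (0.07 and -0.08), with 15 below 0. U2AF1, which recognises the 3′ splice site, stood at 361 CPM in W33 and at 265, 288 and 258 CPM in W19, W36 and W42. SNRPF, a ring protein of the spliceosomal small nuclear ribonucleoproteins, stood at 122 CPM against 73.5, 76.9 and 68.3 CPM. SF3B1, which holds the branch point and was chosen for naming after its values were seen, stood at 193 CPM in W33 against 307, 318 and 358 CPM, and it is long and AT-rich (9164 exonic bases at 38.6% GC). U2AF1 and SNRPF lay above and SF3B1 below all 8 other libraries. With the gradient removed, 4 core genes were called higher and 0 lower, against 1.63% and 1.73% over all genes tested. The call of SF3B1 was lost. With the main transcript 2 were called higher, and U2AF1, whose gradient-removed difference was 0.79, had a difference of 0.10 and lost its call.

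Proteasome subunits, which degrade tagged proteins, were higher in W33 to about the same extent with and without the gradient. Their median over 30 genes was 0.30 before, 0.36 after and 0.26 with the main transcript, and 29 of 30 were above 0 after the removal. PSMB1, a subunit of the core particle, was at 609 CPM in W33 against 447, 474 and 439 CPM. Called higher were 9 subunits before the removal, 5 after it and 1 with the main transcript, under which PSMB1 lost its call. The shares called higher over all genes tested were 5.67% before and 1.63% after the removal. Of the other stress genes, HSPB1, a small heat shock protein, stood at 371 CPM in W33, above W19, W36 and W42 at 139, 125 and 108 CPM (3.003-fold) and above the remaining 5 libraries at 104 to 171 CPM. The heat shock list as a whole had a median of 0.12 over 17 genes, with 12 above 0 and 5 below.

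Zinc finger genes of chromosome 19 with a KRAB domain, which repress retroelements and other genes, were lower in W33. Their median log2 CPM difference over 98 genes was -0.51, with 78 below 0 and 56 below all 8 other libraries. It was -0.23 with the gradient removed and -0.15 with the main transcript, and the genes of this list have a median exonic length of 6128.5 bases and a median GC content of 42.3%. ZNF429 was at 4.38 CPM in W33 and at 11.4, 12.9 and 11.8 CPM in the other wild-type clones, and ZNF222 at 0.0425 CPM, under the floor, against 0.913, 1.16 and 1.14 CPM. These 2 were the list's only calls after the removal, against 1.73% called lower over all genes tested. Of all genes tested, 28.4% lay below all 8 other libraries. Many KRAB genes have close copies next to them.

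**Figure D3:**
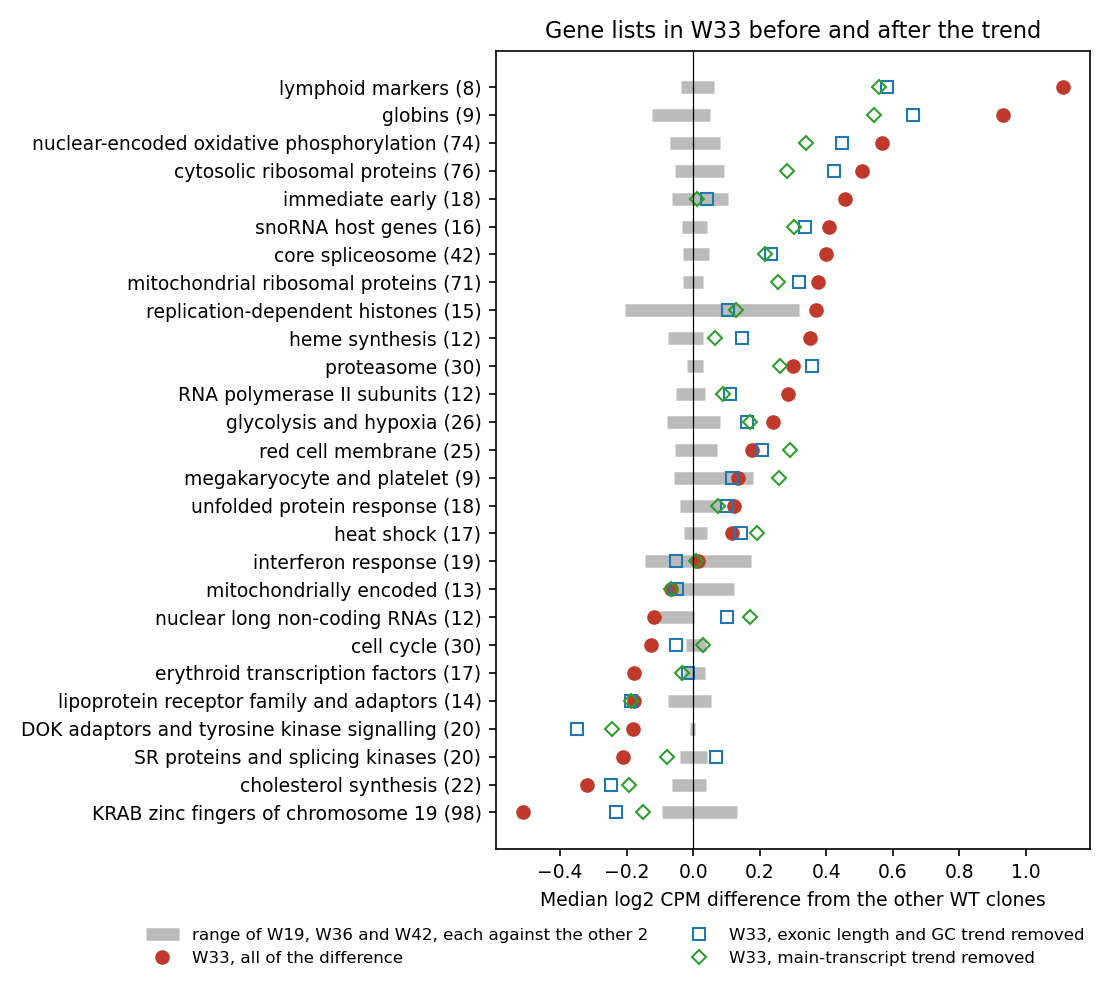
Median log2 CPM difference of W33 from the other wild-type clones for 27 gene lists with at least 8 genes tested (number in brackets), with all of the difference (red circles), after removal of the gradient over exonic length and GC content (blue squares) and after removal of that over the main transcript (green diamonds). Grey bars span W19, W36 and W42, each against the mean of these 3 clones, itself included, and not against the other 2 as the legend says. This makes the bars narrower than a comparison with the other 2 would. Ribosomal, oxidative phosphorylation, spliceosome and proteasome lists stay to the right of 0 under all 3, and the KRAB list stays to the left.

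The largest classes of transcript had small medians before the gradient was removed. Over genes that averaged 1 CPM or more, the median log2 CPM difference was -0.04 for 11415 protein-coding genes, 0.10 for 476 lincRNAs, 0.02 for 1158 processed pseudogenes and -0.04 for 1399 antisense genes. With the gradient removed the medians were -0.02, 0.01, -0.09 and -0.22. Some small classes had larger medians. For 21 sense-overlapping genes it was -0.35 (-0.10 with the gradient removed), and for 19 non-coding RNAs of bidirectional promoters -0.26 (-0.46). Before the removal, 907 protein-coding genes were called higher and 695 lower, 74 processed pseudogenes higher and 116 lower, and 88 antisense genes higher and 119 lower. After it these numbers were 275 and 121, 13 and 92, and 19 and 75, against 336 higher (1.63%) and 357 lower (1.73%) over all genes tested. With the main transcript they were 191 and 87, 10 and 77, and 17 and 65. As the kit does not mark strand, reads of antisense genes and of the genes they overlap may not be told apart. How reads in such overlaps were counted is not given. Reads of a pseudogene and of its parent gene may not be told apart either.

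The 3 genes given as marks of W33 lay far outside the length and GC gradient. HBZ (ENSG00000130656, chromosome 16), the embryonic zeta globin, stood at 579 CPM in W33 and at 84.2, 73.7 and 57.5 CPM in W19, W36 and W42, an 8.07-fold difference. The parental library had 99.2 CPM, and the P95H clones P9, P15, P22 and P38 had 226, 687, 95.7 and 201 CPM, so that P15 exceeded W33. The gradient accounted for 0.62 of its log2 CPM difference of 3.03. HBZ was not called in either fit, and 27.1% of its exonic sequence is shared with HBM on the same strand.

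LRP3 (ENSG00000130881, chromosome 19), a lipoprotein receptor-related protein, stood at 7.19 CPM in W33. In W19, W36 and W42 it had 0.146, 0.517 and 0.0368 CPM, and in the remaining 5 libraries 0.101 to 0.873 CPM. W33 was thus the only library above 1 CPM, 30.8-fold over the other wild-type mean, with a fitted log2 difference of 4.96 before and 4.56 after the gradient was removed. Its adjusted p in edgeR was 0.0266 before and 0.0480 after, and 0.0501, which misses the threshold, with the gradient over the main transcript. DOK2 (ENSG00000147443, chromosome 8), an adaptor that dampens signalling by tyrosine kinases in blood cells, was the reverse case. It had 3 counts in W33 (0.128 CPM, at the floor) and 3.98, 6.98 and 2.17 CPM in W19, W36 and W42, with 3.65 to 14.5 CPM in the others. By counts its ratio of the other wild-type clones to W33 was 35.2 (95% counting interval 11.9 to 171), which covers counting error only. DOK2 was not called in edgeR, with an adjusted p of 0.0635 before the removal, 0.0819 after it and 0.0898 with the main transcript.

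Relatives of LRP3 and DOK2 were described as lists. Of 14 tested genes of lipoprotein receptors and their adaptors, 2 were above 0, LRP3 being 1 of them, and 11 were below. Their median log2 CPM difference was -0.18 (-0.19 with the gradient removed, -0.19 with the main transcript). LRP8 was at 20.7 CPM in W33 against 39.0, 40.5 and 39.2 CPM. Of 20 DOK and tyrosine kinase signalling genes, 15 were below 0, the direction of DOK2, with a median log2 CPM difference of -0.18 (-0.35 with the gradient removed, -0.24 with the main transcript). After the removal 2 were called, both lower, against 1.73% called lower over all genes tested. With the main transcript 1 was called, as STAT5B lost its call. GRB2, the adaptor between receptor kinases and RAS, stood at 46.0 CPM in W33 against 79.2, 90.1 and 90.7 CPM, and STAT5B, a transcription factor downstream of such kinases, at 112 CPM against 180, 202 and 190 CPM. LRP8, GRB2 and STAT5B were below the other 8 libraries in W33.

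Other globin genes were higher in W33 as well, though by less than HBZ. All 9 tested globin genes were above 0, with a median log2 CPM difference of 0.93, 0.66 with the gradient removed and 0.54 with the main transcript, and 1 of them, HBQ1, was called before the removal and 0 after it. HBA2, an adult alpha globin gene named here after its values were seen, stood at 157 CPM in W33 against 40.4, 52.7 and 42.7 CPM, and HBG2, a fetal gamma globin gene, at 2158 CPM against 1133, 1186 and 1725 CPM. W33 exceeded all 8 other libraries for HBA2 but was exceeded in HBG2 by P9, P15 and P38 at 2618, 3031 and 2521 CPM. HBA1 and HBA2, like HBG1 and HBG2, are near-identical, so the split between them is uncertain. Of the erythroid transcription factors, GATA1 stood at 410 CPM in W33 against 235, 234 and 217 CPM and NFE2 at 275 CPM against 164, 168 and 152 CPM. Both are GC-rich (60.7% and 55.2%) and neither was called after the removal. The list of 17 erythroid transcription factors had a median log2 CPM difference of -0.18, and -0.02 with the gradient removed. Before the removal 10 were below 0 and 4 were called higher, against 5.67% called higher over all genes tested. TFRC, the transferrin receptor, went the other way, with 697 CPM in W33 against 1078, 1054 and 1295 CPM.

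A number of genes were silent in the other wild-type clones and active in W33. By a rule set after the values were seen (at least 1 CPM in W33 with at most 3 counts in each of W19, W36 and W42), 12 genes were on in W33, and by its mirror image 9 were off. The same rule, applied to each other wild-type clone against the remaining 3, gave 9 on and 2 off in W19, 3 and 4 in W36, and 22 and 13 in W42. Such genes were thus not more frequent in W33 than in W42.

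The largest of them was EYA2 (ENSG00000064655, chromosome 20), a phosphatase and coactivator of developmental transcription, with 181 counts in W33 (7.70 CPM). It had 1 count over W19, W36 and W42 together and 1 over the remaining 5 libraries, and the ratio by counts was 659 (95% interval 117 to 26162). TWIST1 (ENSG00000122691, chromosome 7), a transcription factor of mesoderm, had 123 counts in W33, 1 in the other wild-type clones and 2 elsewhere. GSPT2 (chromosome X), a translation termination factor encoded by a gene without introns, had 161 counts in W33, 3 in the other wild-type clones and 45 in the parental library, where it stood at 1.30 CPM. KIF1A, a motor protein of axons, had 31 counts in W33 and 113 in the parental library, with 3 in the other wild-type clones and 0 in the P95H clones. EYA2 and TWIST1 were thus above the floor in W33 alone, and GSPT2 and KIF1A also in the parental culture.

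TMEM176A and TMEM176B, neighbouring genes on chromosome 7 that encode paired membrane proteins, were on together. TMEM176A had 41 counts in W33 and 1 over the other wild-type clones, and TMEM176B had 48 and 4. In the P95H clones they had 0 and 1 counts in all, and in the parental library 3 each. Their promoters are shown because the pair moved together, with CG dinucleotides, the sites of DNA methylation, in capitals. They are taken from RefSeq (GRCh38.p14), from 250 bases before to 50 after the listed start, on the strand of the gene.
TMEM176A, chr7:150800519-150800818, plus strand: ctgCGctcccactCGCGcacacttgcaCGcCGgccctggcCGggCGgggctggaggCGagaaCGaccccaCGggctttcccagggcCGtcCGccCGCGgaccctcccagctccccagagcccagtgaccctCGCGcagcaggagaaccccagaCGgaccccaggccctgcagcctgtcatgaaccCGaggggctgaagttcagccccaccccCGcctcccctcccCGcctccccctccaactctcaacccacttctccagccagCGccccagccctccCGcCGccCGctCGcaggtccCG
TMEM176B, chr7:150801311-150801610, minus strand: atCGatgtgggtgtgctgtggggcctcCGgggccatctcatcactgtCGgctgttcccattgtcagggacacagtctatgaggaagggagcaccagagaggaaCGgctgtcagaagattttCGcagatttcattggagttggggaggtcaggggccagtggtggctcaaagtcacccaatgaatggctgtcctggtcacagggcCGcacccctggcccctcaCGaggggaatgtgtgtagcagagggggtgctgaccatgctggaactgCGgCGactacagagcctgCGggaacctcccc

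The TMEM176A window holds 26 CG dinucleotides and that of TMEM176B 10, against a median of 14 in 35116 promoter windows of the same length, of which 30.1% hold at least 26 and 56.4% at least 10. No methylation was measured in these samples. The other genes on in W33 were KCNJ12, a potassium channel, BEND5, RAMP1, a subunit of peptide hormone receptors, PVALB, which encodes parvalbumin, KRT222 and ENSG00000259264. KCNJ12 had 36 counts in W33 and 0 in the other wild-type clones, so it was at least 43.7-fold higher against a floor of 3 counts over the group. ENSG00000259264 was also on in P9, P15 and P22, with 45, 75 and 74 counts.

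Of the genes that were off in W33, SULT6B1, a sulfotransferase, had 1 count in W33 and 43 to 57 in the other wild-type clones. XKR8 (ENSG00000158156, chromosome 1), a scramblase that exposes phosphatidylserine on dying cells, had 3 counts in W33 and 133, 128 and 111 in W19, W36 and W42. It had 2 counts in P9, and 107 to 170 in the parental library and the other P95H clones. XKR8 was thus at the floor in W33 and in P9 and in no other library. The rest were DOK2, RGPD1, a member of a family of near-identical copies whose counts are uncertain, ENSG00000184881 and the non-coding MIR1254-1, CNOT6LP1, AC243772.3 and AL049543.1. AC243772.3 was at 0 in W33, with 29, 34 and 45 counts in the other wild-type clones, at least 9.89-fold lower against the floor of 3 counts.

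**Figure D4:**
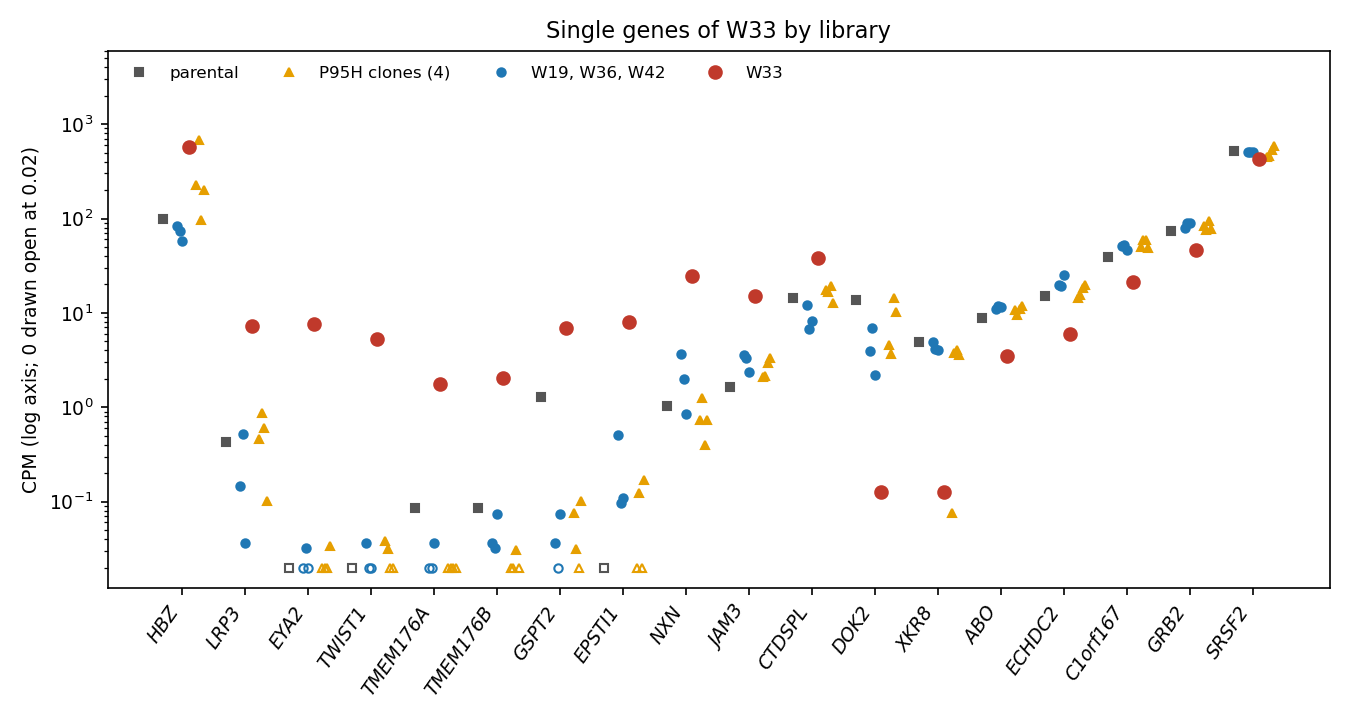
CPM by library (log axis) for 18 genes named in the text. W33 is drawn in red, W19, W36 and W42 in blue, the 4 P95H clones as orange triangles and the parental library as a grey square. Open symbols at the bottom mark 0. From LRP3 to CTDSPL W33 stands above every other library, and from DOK2 to SRSF2 it stands below every other library except at XKR8, where P9 is lower.

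By the rule for naming, 170 protein-coding genes were higher and 92 lower in W33 both with and without the gradient, outside the range of the other wild-type clones and at a mean of at least 5 CPM on one side. The 12 with the largest gradient-removed difference were taken in each direction. Beside EYA2, TWIST1, GSPT2 and LRP3, the higher ones were EPSTI1, NXN, KIAA1549, JAM3, CTDSPL, ELOVL2, GRAP2 and SRRM3. All 12 lay above the other 8 libraries. EPSTI1, an interferon-inducible gene, stood at 8.04 CPM in W33 against 0.511, 0.0969 and 0.110 CPM in W19, W36 and W42, while the list of 19 interferon response genes had a median log2 CPM difference of 0.02. NXN, a redox protein of Wnt signalling, stood at 24.7 CPM against 3.69, 1.97 and 0.846 CPM (11.4-fold). JAM3, an adhesion molecule of cell junctions, stood at 15.1 CPM against 3.61, 3.33 and 2.39 CPM (4.86-fold). For CTDSPL, a phosphatase that acts on RB1, the values were 38.6 CPM and 12.2, 6.81 and 8.24 CPM.

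The remaining higher genes differed by less, apart from KIAA1549 at 15.5 CPM against 2.96, 1.13 and 1.07 CPM. ELOVL2, which elongates polyunsaturated fatty acids, stood at 21.1 CPM in W33, near P38 at 20.3 CPM, against 7.81, 8.27 and 6.32 CPM. GRAP2, an adaptor of the GRB2 family, stood at 18.9 CPM against 8.07, 7.395 and 6.32 CPM, and SRRM3, a splicing factor related to the neuronal SRRM4, at 13.9 CPM against 4.82, 5.04 and 3.82 CPM. These genes were picked for lying outside the range of the other wild-type clones, and W33 exceeded P38 only narrowly for ELOVL2.

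Among the lower protein-coding genes, ANO9, a membrane protein of the anoctamin family, stood at 1.11 CPM in W33 against 9.97, 8.23 and 4.30 CPM (6.78-fold lower). SMCR8, a partner of C9orf72 in autophagy, stood at 1.06 CPM against 5.59, 5.10 and 7.24 CPM. NCR3LG1, the ligand of the natural killer cell receptor NKp30, stood at 3.91 CPM against 19.9, 19.8 and 27.2 CPM (5.69-fold lower). ABO, the glycosyltransferase of the ABO blood group, had 3.53 CPM against 10.99, 11.8 and 11.6 CPM, a narrow range in the others. NFAT5, a transcription factor of the response to osmotic stress, is long and AT-rich (16401 exonic bases at 40.2% GC), and its fitted log2 difference of -1.92 was -1.42 with the gradient removed.

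Other lower genes were INCA1, B3GNT10, ECHDC2, AP5B1, C1orf167 and LHX4, at 2.32- to 3.61-fold below the other wild-type mean. The lower genes named here were all below the other 8 libraries. LHX4 shares 30.8% of its exonic sequence with the antisense gene ACBD6, so its reads may come from either strand. LHX4 and AP5B1, like LRP3 among the higher genes, were not called with the gradient over the main transcript. Of genes of other classes, HAGLR, a non-coding RNA of the HOXD cluster, stood at 5.53 CPM in W33 against 0.438, 0.0969 and 0.0735 CPM, and AC107081.2, AL390039.1 and AC016629.2 were 1.75- to 2.01-fold higher. AC016629.2 stood at 7.02 CPM in W33, below the P95H clones at 7.07 to 9.85 CPM and the parental library at 7.20 CPM. The pseudogene WASF4P stood at 1.66 CPM against 9.46, 10.3 and 11.3 CPM, and AC007163.1, SMARCA5-AS1 and AC096536.2 were 4.23- to 4.87-fold lower.

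Part of the lower genes lay side by side. Ordered along the chromosomes in 381 bins of 25 expressed protein-coding genes, with the gradient over the main transcript removed from every library, W33 had 16 bins with a median log2 difference from the mean of W19, W36 and W42 below -0.25 and 2 above 0.25. In W19, W36, W42 and the parental library, 0, 2, 1 and 0 bins were below and 1, 0, 0 and 0 above. W19, W36 and W42 are each part of the mean they are set against, which draws their differences towards 0. P9 had 19 below and 2 above, and P15 had 15 below and 11 above, so W33 was not alone among the clones in having such bins. Blocks were delimited after these values had been seen. On chromosome 1, all 20 bins from MIB2 to PSRC1 were below 0 in W33, at -0.54 to -0.01. On chromosome 17, all 7 bins from AKAP1 to NOTUM, at the end of the gene order, were below 0, at -0.50 to -0.15.

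In the block of chromosome 1, 404 of 500 genes (80.8%) were below 0 in W33 with a median of -0.27, against -0.01 in the 521 other genes of the chromosome. The medians of the block in W19, W36, W42 and the parental library were -0.01, 0.02, 0.00 and 0.02. W19, W36 and W42 are part of their own reference here. P9, a P95H clone, was the other library in which the block was lower, at -0.43, and P15, P22 and P38 were at 0.01, 0.01 and 0.04. XKR8, at the floor in W33 and P9, lies in it, as do ECHDC2, C1orf167 and LRP8. Of 958 genes tested in the block, 31 were called lower and 4 higher after the gradient was removed. In the rest of the chromosome these were 14 and 15 of 1052. Over all genes tested, 1.73% were called lower and 1.63% higher.

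The block of chromosome 17 was lower in W33 alone. Its median over 175 genes was -0.32, with 138 (78.9%) below 0. The medians of the other 8 libraries lay between -0.02 and 0.06, with W19, W36 and W42 part of their own reference. In the other 424 genes of the chromosome the median of W33 was -0.06. SRSF2, MFSD11 and GRB2 lie in this block, and of its 326 tested genes 16 were called lower and 2 higher. In the rest of the chromosome 29 of 870 were called lower and 10 higher. MAFG, the small partner of NFE2, stood at 44.6 CPM in W33 against 80.9, 78.7 and 76.4 CPM, and INTS2, a subunit of the Integrator complex, at 14.7 CPM against 36.6, 36.7 and 43.3 CPM; both were named after their values were seen. Outside both blocks, 310 genes were called lower and 330 higher of 19352 tested, and the median was 0.00. Without any removal of the gradient the block medians were -0.28 on chromosome 1 and -0.19 on chromosome 17. The medians in the rest of these chromosomes were then -0.12 and 0.03. DNA content was not measured, and no copy number is given.

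**Figure D5:**
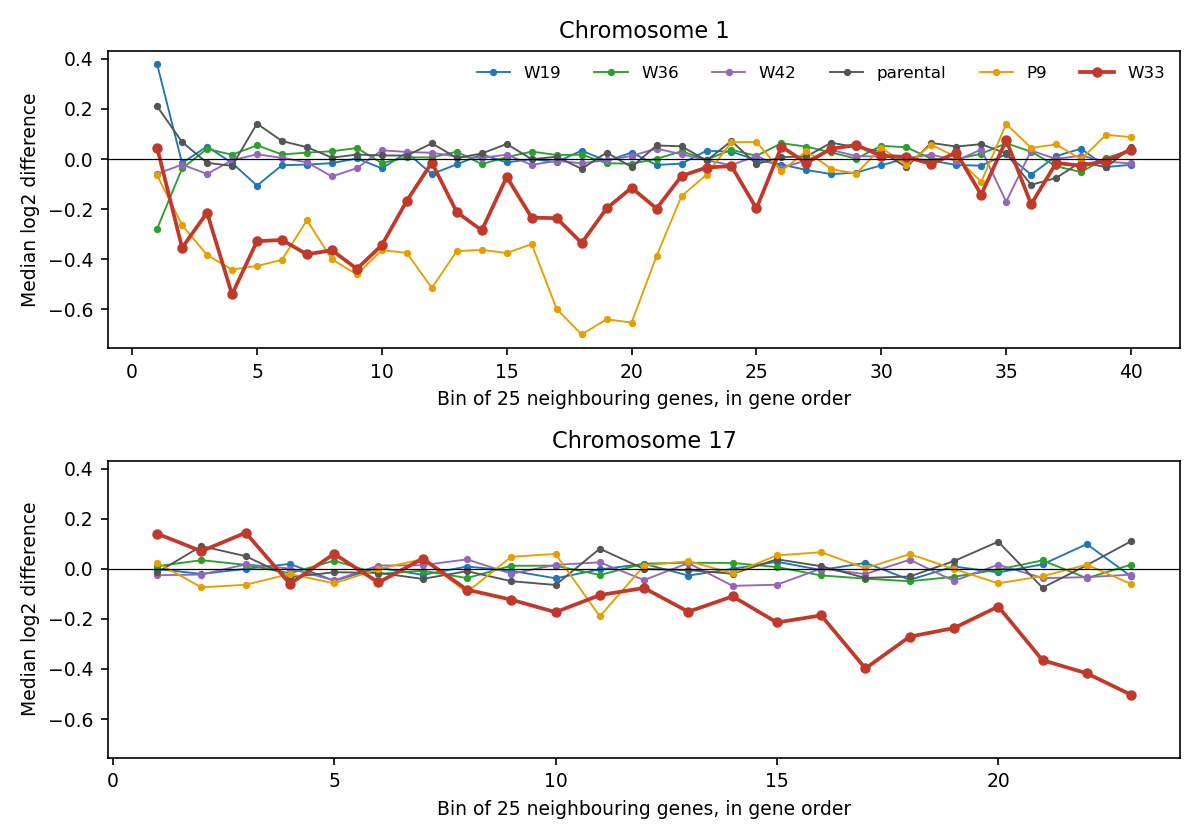
Median log2 difference from the mean of W19, W36 and W42 in bins of 25 neighbouring protein-coding genes, in gene order along chromosome 1 (top) and chromosome 17 (bottom), with the gradient over the main transcript removed. W33 (thick red line) is below 0 from the second to the 21st bin of chromosome 1, as is P9 (orange). W33 reaches -0.50 at the end of chromosome 17, where the other lines stay close to 0. W19, W36 and W42 are each part of the mean they are set against.

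Summed markers of other cell types were also higher in W33 than in the other wild-type clones. Of 8 lymphoid markers the summed level was 35.3 CPM in W33 against 14.5 to 17.8 CPM in the other wild-type clones and 4.83 to 24.1 CPM in the other 5 libraries. CD3D gave 22.3 CPM of it, and MS4A1 and IGHM, defining genes of B cells, were at 0. The sum of 7 monocyte and granulocyte markers was 19.3 CPM against 11.4 to 15.3 CPM, nearly all from LYZ, and 9.86 to 38.9 CPM in the other 5 libraries. LYZ was higher in the parental library, P22 and P38, at 38.3, 32.5 and 24.6 CPM, than in W33 at 18.8 CPM. The sum of 8 fibroblast and endothelium markers was 10.1 CPM against 2.76 to 6.21 CPM, and 1.18 to 7.11 CPM in the other 5 libraries, nearly all from COL1A1, with 5 at 0, LUM and PECAM1 among them. For 6 epithelial markers the sum was 1305 CPM against 817 to 1010 CPM, and 478 to 909 CPM in the other 5 libraries, mostly from KRT8 at 723 CPM and KRT18 at 363 CPM. EPCAM, of the same set, went the other way, at 93.1 CPM in W33 against 152, 157 and 103 CPM in W19, W36 and W42. Their part in the differences of W33 was not tested.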

How the data were processed

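RNA of 9 K562 libraries was measured, 1 per clone or line, grouped by their titles. The members and lists described here were chosen with earlier results of these data known. RNA was extracted with miRNeasy and poly(A)-selected for TruSeq RNA libraries run on a HiSeq2000, per the labels' protocols. The deposited values are raw counts per gene without normalization, made with GRCh37, TopHat2 2.0.4, HTSeq 0.6.1p1 and bcl2fastq, per the submitters' processing notes. How overlaps and strand were counted is not given in the sources used here. Each list ends with 5 summary lines, which name no gene and entered neither library sizes nor tests. Reads in no gene made up 47.6 to 49.1% of all reads listed. Symbols, biotypes, exonic length and GC content came from GENCODE 29 (GRCh38) by gene ID for 52526 of 63677 IDs, as did the chromosomes and the order of genes along them, and no coordinates of it are printed.

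Genes were tested with edgeR 4.0.16 (R 4.3.3): filterByExpr, TMM scaling, a robust quasi-likelihood fit of 4 model groups (W33, other wild-type clones, P95H clones, parental) and Benjamini-Hochberg adjustment over 20636 genes at 0.05. The spread is that between clones, and W33 adds no estimate of its own. CPM are per library after TMM scaling, and log2 CPM used a prior count of 2. The gradient was fitted in each library to the log2 ratio to the mean of the 9, over log10 exonic length and GC content (natural splines, 4 df each, genes of at least 5 CPM), and entered as an offset. Exonic length and GC content were at hand for 96.2% of the genes tested, and the offset was 0 for the others. The fit was run on simulated counts, with and without the gradient fitted to W33 put in, and with less spread than estimated from the data. As the same form of gradient was put in and removed, this checks the code. It cannot show whether the removal suits these data. Genes were named by rule: SRSF2, HBZ, DOK2 and LRP3, then up to 12 protein-coding and 4 other genes in each direction with the largest gradient-removed difference among genes called both ways, outside the range of the other wild-type clones and at a mean of at least 5 CPM in W33 or in the others, then up to 3 genes per list by unadjusted p. A fallback by unadjusted p, for a direction with under 6 protein-coding genes, was not needed. Of 870 list entries in 30 lists, 846 matched a gene ID. Alternatives were other scalings and filters, DESeq2 1.42.0, limma-voom (limma 3.58.1), other gradient settings, a test against a 1.5-fold change, fewer libraries and each other wild-type clone left out. Chosen after seeing the data were the main-transcript gradient, the parental and P95H references, the comparisons without W33, the on and off rule, and the blocks of neighbouring genes. Some genes that the rules would name are not reported here.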

Additional observations from a re-analysis of the deposited data

Results flagged for a closer look

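For 34 of the genes named above and 5 measures of the libraries (such as total count and TMM factor), the values of the 4 wild-type and of the 4 P95H clones were searched for a single clone whose gap to its neighbour took up more than 0.829 of its group's range. This happens by chance in about 1 in 20 groups, and 23 of 78 groups did so, with 0 among the library measures. W33 was the clone that stood apart in all 20 of the wild-type groups concerned; W33 and these genes had been chosen for standing apart, so the number is a description.

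Of the 3 genes given as marks of W33, it stood alone at 579 CPM for HBZ and 7.19 CPM for LRP3, while its DOK2 value did not pass this limit. It also stood alone at 429 CPM for SRSF2. Its value lay above the other wild-type clones at 7.70 CPM for EYA2, 5.23 CPM for TWIST1, 6.85 CPM for GSPT2, 8.04 CPM for EPSTI1 and 24.7 CPM for NXN. It was also above them at 15.5 CPM for KIAA1549, 15.1 CPM for JAM3, 38.6 CPM for CTDSPL, 21.1 CPM for ELOVL2, 18.9 CPM for GRAP2 and 13.9 CPM for SRRM3. Of the non-coding genes, HAGLR stood at 5.53 CPM, AC107081.2 at 158 CPM and AL390039.1 at 31.0 CPM, above the others. W33 lay below the others at 3.53 CPM for ABO, which encodes the blood group transferase, 1.91 CPM for SMARCA5-AS1 and 2.51 CPM for AC096536.2, as it did for SRSF2.

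In the P95H clones, 3 values stood apart. P38 had 0.0335 CPM for EYA2 where the other P95H clones had 0, which is below the 3-count floor. P9 was lowest for SRRM3 at 2.10 CPM and for WASF4P at 8.95 CPM.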

How the results depend on the processing

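Numbers of called genes depended on the fit. For W33 against the other wild-type clones, 2246 genes became 6662 with the wild-type clones alone, 4531 without P15 and P22, 3605 with DESeq2 and 4 when tested against a 1.5-fold change. Leaving out W19, W36 or W42 gave 0 to 527, and after removal of the gradient (693 genes) 0 in each case. The 693 became 1552 with a length gradient alone and 4754 with the wild-type clones alone. In place of W33, and without it, W19 gave 0, W36 0 and W42 3 genes (199, 108 and 251 at an unadjusted p under 0.05 in edgeR). The cause was not tested. Of the 2246 genes, 2160 were also called by DESeq2 and 2119 by limma-voom.

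The step from longest to shortest quintile moved from 0.72 to 0.43 with the parental library as the reference; all other settings left both steps within the spread between clones. Class medians moved as follows when the gradient over exonic length and GC content, or over the main transcript, was removed: protein-coding genes -0.017 and -0.011, antisense genes -0.22 and -0.20, lincRNAs 0.012 (exonic), cytosolic ribosomal proteins 0.28 (main transcript), mitochondrial ribosomal proteins 0.32 and 0.25, oxidative phosphorylation 0.45 and 0.34, core spliceosome 0.24 and 0.22, proteasome 0.36 (exonic), globins 0.66 and 0.54, and KRAB zinc fingers -0.23 and -0.15. Processed pseudogenes turned from 0.018 to -0.090 and -0.11. Globins ran from 0.76 to 1.03 with single clones left out.

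This check held 92 named genes, most of them named because they were called. That 85 were called follows from this choice, against 10.9% called over all genes tested. Direction turned in 0 of the 92. Of the 85, 0 were called under every alternative, since 85 were lost without W36 and 85 without W42. With the scalings, limma-voom, the 1 CPM filter and without P15 and P22, at most 2 calls were lost. The 1 CPM filter left 78 of the 92 genes to test. DESeq2 lost 8 and no filter 10. The depth of 24546255 counts in W33 limits statements on genes at 0.128 CPM or below. No paired analysis was possible because the clone numbers of the wild-type and P95H clones are not shared and W33 is a single library.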

Other observations

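Some lists not described above kept a difference when the gradient was removed, and others lost it. Of 16 host genes of small nucleolar RNAs, 12 were above 0 in W33 with a median log2 CPM difference of 0.41, and the median was 0.34 with the gradient over exonic sequence removed and 0.30 with that over the main transcript. SNHG16 stood at 209 CPM in W33 against 158, 162 and 150 CPM in W19, W36 and W42. Cholesterol synthesis genes had a median of -0.32 over 22 genes (-0.25 and -0.19), with 14 below 0 and 8 above. CYP51A1, which demethylates lanosterol, stood at 0.596 CPM (14 counts) against 2.19, 1.97 and 2.57 CPM. A share of 0.79 of its exonic sequence overlaps another gene on the same strand, so its counts are uncertain. NSDHL, of the same list, was higher in W33, at 64.6 CPM against 44.9, 44.6 and 45.7 CPM. After the removal, 2 host genes were called higher and 0 cholesterol genes were called in edgeR. Over all genes tested, 1.63% were called higher and 1.73% lower.

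Immediate early genes, which respond to stimulation within minutes and are mostly short and GC-rich, had a median of 0.46 over 18 genes, but 0.04 and 0.01 once either gradient was removed. IER2 stood at 232 CPM in W33 against 159, 139 and 134 CPM. Cell cycle genes had a median of -0.13 over 30 genes, and -0.05 and 0.03 after removal. Within that list AURKB, a mitotic kinase, was at 77.8 CPM in W33 against 48.8, 48.0 and 43.6 CPM, and TOP2A, the topoisomerase that untangles chromosomes, at 253 CPM against 504, 523 and 615 CPM. AURKB has 2241 exonic bases at 55.7% GC and TOP2A 6437 at 38.9%, and neither was called after the removal.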
